A study of Onthophagus taurus with 96 samples.

Results

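Hox genes encode transcription factors that give each segment of an insect its identity along the axis from head to tail. A list of 8 of them was looked up by gene name among the 17483 genes annotated in Onthophagus taurus, the bull-headed dung beetle, and 4 had a row: Dmel-Tmp-antp (Antennapedia, Antp), Dmel-Tmp-ubx (Ultrabithorax, Ubx), Dmel-Tmp-abd-a (abdominal-A, abd-A) and Dmel-Tmp-abd-b (Abdominal-B, Abd-B). The names Dmel-Tmp-lab, Dmel-Tmp-pb, Dmel-Tmp-dfd and Dmel-Tmp-scr (labial, proboscipedia, Deformed and Sex combs reduced, the Hox genes of the head and of the first thoracic segment in flies) matched no row and were not analysed here. The rule that selects them uses gene names and no measured value.

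RNA was sequenced from 4 body regions of pupae of both sexes, after injection of double-stranded RNA into larvae. The regions were genitalia (epidermis of the last abdominal segments, with the male copulatory organ), thoracic horns (dorsal epidermis of the first thoracic segment), head horns (posterodorsal head epithelium) and brain (supraesophageal ganglion). dsxRNAi females and dsxRNAi males received 0.5 μg directed at the stretch of doublesex (dsx, a sex-determination gene) common to its male and female isoforms, and control females and control males received 1 μg of double-stranded RNA made from vector sequence, so the treatments differed in dose as well as in sequence. Every injection was of 3 μl and fell within the first 5 days of the final larval stage, and pupae were dissected within a day of pupation. Each of the 16 combinations of treatment, sex and region had 6 libraries, 96 in all, which are described as biological replicates. Per the methods all regions were dissected from the same pupae, but the labels do not give which libraries share a pupa.

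In flies, Hox genes are switched on in ordered domains of the body: Antp in the thorax, Ubx from the posterior thorax into the abdomen, abd-A in the abdomen and Abd-B in the last abdominal segments and the genital primordium. Their proteins bind DNA together with the cofactors Extradenticle and Homothorax, and Polycomb and trithorax group proteins keep the genes off or on after the embryonic signals that first set their domains have gone. The insect supraesophageal ganglion and the dorsal head develop in front of most of these domains.

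Library totals lay between 3615803 and 19008005 counted reads, with a median of 8518004, so that 3 reads, the level taken as the floor, correspond to between 0.148 and 0.909 CPM, depending on the library. CPM is the usual read count relative to library size, scaled here by the trimmed mean of M values (TMM), and such counting limits cover counting error only. The region labels were compared with marker genes. The summed CPM of 5 neuronal markers was 1497 to 2285 in brain libraries and did not exceed 490 in any library of the other regions, and the summed CPM of 5 epidermal markers was 22.4 to 275 in brain, 2891 to 38952 in head horn, 4148 to 35317 in thoracic horn and 3200 to 10677 in genitalia libraries. dsx itself lay between 1.95 and 45.9 CPM in dsxRNAi genitalia against 8.24 to 129 CPM in control genitalia, and between 2.1 and 21.9 CPM in dsxRNAi thoracic horns against 20.0 to 45.6 CPM in control thoracic horns. In head horns it lay between 7.33 and 48.8 CPM in dsxRNAi against 19.5 to 83.4 CPM in control libraries. In brain it did not exceed 0.69 CPM in either treatment. The ranges of the treatments overlapped in every region.

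The gene models lie on 3 scaffolds of the deposited annotation. abd-A (OTAU008865, plus strand, positions 3039 to 4049) and Ubx (OTAU008868, plus strand, positions 272292 to 274652) share Scaffold35, in that order and on the same strand, 268242 bases apart. Antp (OTAU008869, minus strand, positions 48245 to 68085) is on Scaffold28, and Abd-B (OTAU010250, minus strand, positions 168959 to 176176) is on Scaffold49. The files give the span of each gene without its exons, and the abd-A model spans 1011 bases, the shortest of the 4. The cofactor Dmel-Tmp-exd and the other genes named in the text are given by the names in the deposited annotation, where Dmel and Hsap mark a match to a fly or a human gene.

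All 4 Hox genes were expressed in genitalia, Antp alone was expressed well above the floor in thoracic horns, and no head horn or brain library held more than 18 reads of any of them. Abd-B, which specifies the last abdominal segments in flies, had 1062 to 4048 reads in every one of the 24 genitalia libraries and 0 to 9 reads in each of the 72 others. Ubx had 26 to 118 reads in genitalia libraries and 0 to 11 elsewhere. abd-A had 2 to 88 reads in genitalia libraries, and 2 reads in total over the 72 others. Antp, the thoracic Hox gene of flies, had 49 to 164 reads in thoracic horns, 15 to 72 in genitalia, 1 to 18 in head horns and 0 to 4 in brain.

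**Figure D1:**
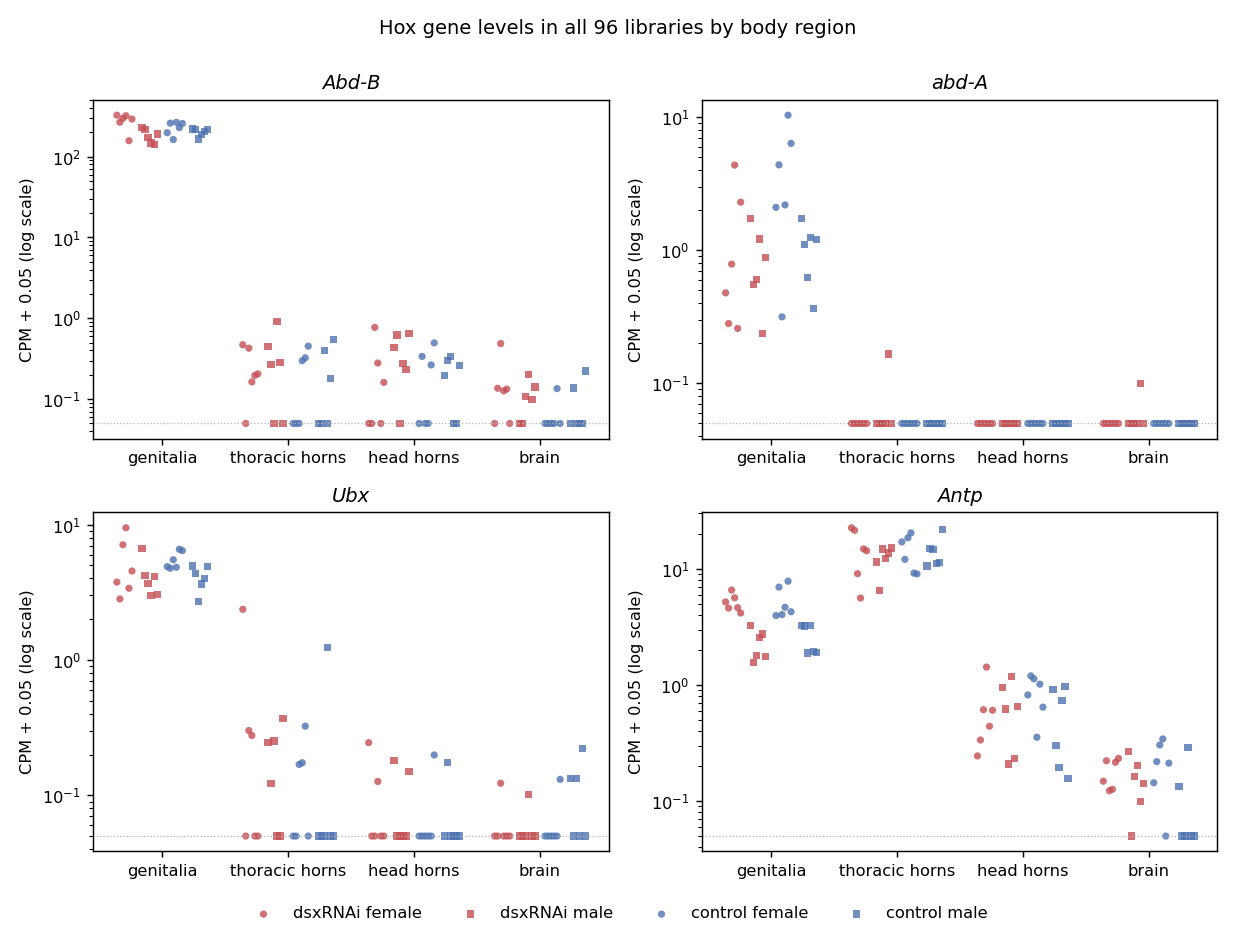
Level of each Hox gene in all 96 libraries by body region. The vertical axis is CPM plus 0.05 on a log scale, the dotted line marks 0 reads, red points are dsxRNAi and blue points control libraries, circles are females and squares males. Abd-B, abd-A and Ubx stand in genitalia, where Abd-B is above 142 CPM in every library, and Antp is highest in thoracic horns and second in genitalia.

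Abd-B was the most abundant Hox transcript of the series. It lay between 142 and 326 CPM in dsxRNAi genitalia (median 223) and between 163 and 266 CPM in control genitalia (median 216). Outside genitalia no library exceeded 0.87 CPM, and 31 of the 72 libraries had no read. The level in the least abundant genitalia library was thus above that of every library of the other regions. Pooled over the 12 libraries of a region in dsxRNAi animals, the share of Abd-B among all reads in genitalia was 1601 times that of thoracic horns (95% counting interval 1025 to 2660), 1088 times that of head horns (758 to 1625) and 1791 times that of brain (1086 to 3200). In control animals the same ratios were 2046 (1219 to 3743), 2091 (1246 to 3825) and 6293 (2457 to 23096).

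Ubx, which in flies acts in the posterior thorax and the abdomen, had fewer reads than Abd-B in every genitalia library but followed the same regions. It lay between 2.77 and 9.42 CPM in dsxRNAi genitalia (median 3.90) and between 2.66 and 6.52 CPM in control genitalia (median 4.82). Head horns had no more than 1 read in any library and brain no more than 2. In thoracic horns 13 of 24 libraries had no read. The dsxRNAi female library S25 had 11 Ubx reads (2.32 CPM) and the control male library S46 had 7 (1.18 CPM), and no other thoracic horn library exceeded 3 reads. These libraries held 11 of the 20 reads of the 12 dsxRNAi thoracic horn libraries and 7 of the 12 reads of the 12 control libraries. The pooled Ubx level in genitalia was 30.7 times that in thoracic horns in dsxRNAi animals and 51.1 times in control animals, and 63.7 and 113 times without S25 and S46. The muscle marker sums of S25 and S46 were 376 and 485 CPM, within the range of 269 to 5079 CPM of all thoracic horn libraries. Their blood cell sums were 179 and 1927 CPM, in a range of 147 to 11052 CPM. Their germ line sums were 935 and 791 CPM, in a range of 505 to 935 CPM, with S25 the highest. This sum was high in both horn regions, with medians of 680 CPM in thoracic and 733 CPM in head horns. Its medians were 370 CPM in genitalia and 199 CPM in brain. The part of other tissue in their Ubx reads was not tested.

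abd-A, the Hox gene of the middle abdomen in flies, was the least abundant of the 4 in reads. It lay between 0.19 and 4.31 CPM in dsxRNAi genitalia (median 0.64) and between 0.27 and 10.3 CPM in control genitalia (median 1.44). Outside genitalia, dsxRNAi animals had a single read in 1 male thoracic horn library and a single read in 1 male brain library. The pooled ratios of dsxRNAi genitalia to these regions were 155 (27.4 to 6157) and 137 (24.2 to 5436). Against a floor of 3 reads over the 12 libraries of a region, the pooled level was at least 53.6-fold higher in dsxRNAi genitalia than in head horns. In control animals no library of the other regions had a read, and the pooled level in control genitalia was at least 108-fold higher than in thoracic horns, at least 110-fold higher than in head horns and at least 94.8-fold higher than in brain.

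Antp had a pattern of its own. It lay between 5.56 and 22.5 CPM in dsxRNAi thoracic horns (median 13.95) and between 8.998 and 21.9 CPM in control thoracic horns (median 13.3). Genitalia had 1.51 to 6.52 CPM in dsxRNAi animals (median 3.66) and 1.84 to 7.78 CPM in controls (median 3.56). Head horns had 0.16 to 1.38 CPM in dsxRNAi animals (median 0.56) and 0.11 to 1.15 CPM in controls (median 0.73), and brain had at most 0.22 CPM in dsxRNAi animals and at most 0.29 CPM in controls. Thoracic horn and genitalia libraries did not overlap in controls. In dsxRNAi animals the lowest thoracic horn library (5.56 CPM) lay below the highest genitalia library (6.52 CPM). Both regions lay above every head horn and brain library in both treatments.

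Regions were compared by edgeR's quasi-likelihood test, with p-values adjusted by the Benjamini-Hochberg method over all genes tested and 12 libraries of both sexes on each side. These tests treat libraries of different regions as independent although they share pupae, since the pairs are not known. In dsxRNAi animals abd-A did not pass the low-count filter, and the other 3 Hox genes passed the test in each comparison of genitalia: with thoracic horns, where 38.9% of all genes were called, with head horns (47.9%) and with brain (75.4%). Abd-B was higher in genitalia than in thoracic horns by 9.87 on the log2 scale (SE 0.36), Ubx was higher by 4.14 (SE 0.58, adjusted p = 7.9e-06) and the log2 fold change of Antp was -1.97 (SE 0.23, adjusted p = 6.2e-07). Antp was the only Hox gene with enough reads to be tested between thoracic horns and the regions of the head. It was higher in thoracic horns than in head horns by 4.47 (SE 0.33, adjusted p = 9.7e-10), where 4.81% of genes were called, and than in brain by 6.76 (SE 0.31, adjusted p = 1.2e-15), where 74.8% were called. A region can hold less of a transcript because fewer of its cells make it or because each cell makes less, and bulk libraries cannot tell these apart.

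The same order held in controls. All 4 Hox genes passed the test between genitalia and thoracic horns, in a comparison that called 50.1% of all genes tested. Abd-B was higher in genitalia by 10.22 on the log2 scale (SE 0.31, adjusted p = 6.1e-17) and Ubx by 4.92 (SE 0.53, adjusted p = 9.1e-08), abd-A was also higher (adjusted p = 1.5e-05), and Antp was lower with a log2 fold change of -1.91 (SE 0.21, adjusted p = 1.5e-07). All 4 were higher in genitalia than in head horns, where 55.5% of all genes were called, and than in brain, where 76.9% were called. The log2 fold change of Antp was 2.54 (SE 0.29) between genitalia and head horns and 5.02 (SE 0.37) between genitalia and brain. Antp was higher in thoracic horns than in head horns by 4.45 (SE 0.29, adjusted p = 8.9e-11), in a comparison that called 10.2% of genes, and than in brain by 6.83 (SE 0.36, adjusted p = 8.4e-15), where 80.4% were called. In total 11 of 11 tests of a Hox gene between regions passed in dsxRNAi animals and 14 of 14 in controls. Ubx, abd-A and Abd-B passed the low-count filter only in comparisons that included genitalia, through the region where they are high. Their passed tests therefore add nothing beyond the read counts themselves, and the totals are given as a description.

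Without the filter, edgeR also placed abd-A higher in dsxRNAi genitalia than in thoracic horns (log2 fold change 5.47, adjusted p = 4.0e-06), head horns (6.49, adjusted p = 1.1e-04) and brain (6.05, adjusted p = 2.3e-08). It placed Antp higher in head horns than in brain (2.25, adjusted p = 2.2e-05 in dsxRNAi animals and 2.46, adjusted p = 1.2e-04 in controls). With the filter, which removed Antp from that comparison for low counts, 76.2% of all genes were called in dsxRNAi animals and 80.6% in controls.

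**Figure D2:**
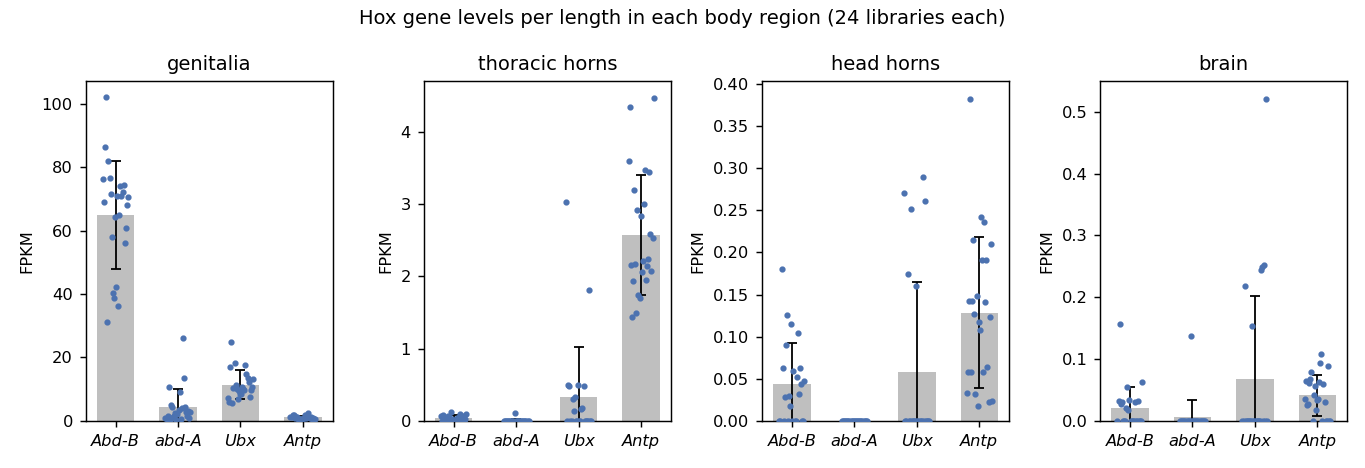
Level per length of the 4 Hox genes in each body region, in the deposited FPKM units. Points are the 24 libraries of a region, bars are their mean and error bars 1 SD, and each panel has its own axis from 0. In genitalia Abd-B leads at 64.9 FPKM and Antp is last at 1.09 FPKM, whereas Antp leads in thoracic horns at 2.57 FPKM.

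To compare levels between genes, the deposited FPKM values were used, which divide reads by a constant of each gene. In genitalia Abd-B averaged 64.9 ± 17.1 FPKM, Ubx 11.4 ± 4.53, abd-A 4.30 ± 5.72 and Antp 1.09 ± 0.51 (SD, n = 24). Abd-B thus made up 79.4% of the summed mean FPKM of the 4 genes in genitalia, Ubx 13.98%, abd-A 5.26% and Antp 1.33%. Abd-B and Ubx did not overlap in any genitalia library, whereas abd-A, at 0.32 to 25.99 FPKM, overlapped with both Ubx (5.49 to 25.0 FPKM) and Antp (0.50 to 2.56 FPKM). In thoracic horns Antp averaged 2.57 ± 0.83 FPKM and made up 87.4% of the sum, and the other 3 genes averaged no more than 0.33 FPKM. In head horns Antp averaged 0.13 ± 0.09 FPKM, and in brain every Hox gene averaged under 0.07 FPKM, which is too few reads to order them. The order in genitalia was the same when TMM-scaled CPM was divided by the gene constants of the FPKM table. That alternative keeps the gene constants and changes only the scaling of each library. It therefore cannot test how far the order depends on the constants.

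The genes next to the Hox genes differed in how far they shared these regions. On Scaffold49 the models on either side of Abd-B, OtauTmpM010249 (plus strand, positions 99867 to 113539) and OtauTmpM010251 (minus strand, positions 180636 to 184810), had 594 and 1001 reads in the 24 genitalia libraries, and 98.5% and 99.9% of all their reads came from genitalia, against 99.8% for Abd-B itself. A further model on that scaffold, OtauTmpM010247, named after its values were seen, had 871 reads in genitalia and 4 in the 72 other libraries. OtauTmpM010249 had a mean of 2.03 CPM in dsxRNAi genitalia and 2.47 CPM in control genitalia, and OtauTmpM010251 a mean of 3.83 and 3.40 CPM. On Scaffold35 OtauTmpA008866, next to abd-A, had 84.1% of its 126 reads in genitalia, and OtauTmpM008867, next to Ubx, had 32.7% of its 98 reads there. Dmel-Tmp-cg3344, the only other gene on the scaffold of Antp, had 43 reads in genitalia, 54 in thoracic horns, and 10 and 21 reads in head horns and brain. The files pair none of the OtauTmp models with a known gene.

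Over the 96 libraries, likeness to a Hox gene was measured as Pearson's r of log2(CPM + 1) among 10534 genes with a mean of at least 1 CPM. The closest match of Abd-B was Ubx (r = 0.97), followed by OtauTmpM005666 (0.96) and Hsap-Tmp-cdx2 (0.96), named for a caudal-type homeobox gene that patterns the posterior body in vertebrates. Hsap-Tmp-cdx2 had a mean of 30.98 CPM in genitalia and at most 1.54 CPM in any other library, and OtauTmpM005666 had a mean of 15.05 CPM in genitalia and at most 1.64 CPM elsewhere. The same 3 genes, with Abd-B in the place of Ubx, led the list of Ubx (0.97, 0.93 and 0.91). By rank these likenesses were lower, with Spearman's rho of 0.68, 0.73 and 0.62 for the 3 matches of Abd-B and 0.68, 0.54 and 0.58 for those of Ubx, whereas it was 0.89, 0.87 and 0.85 for the 3 matches of Antp named next. The closest matches of Antp were Dmel-Tmp-cpr67b (0.89), a cuticle protein gene, Dmel-Tmp-dlp (0.88), a heparan sulphate proteoglycan of the cell surface, and OtauTmpM001108 (0.87). Dmel-Tmp-cpr67b had a mean of 6356 CPM in thoracic horns, 607 in genitalia, 26.6 in head horns and 0.51 in brain, the same order of regions as Antp. Dmel-Tmp-abd-a averaged 0.46 CPM over all libraries and was not ranked. These correlations are over libraries that share 4 regions, and are given as a description. Within the 24 genitalia libraries r between pairs of the 4 Hox genes lay between 0.42 (abd-A and Abd-B) and 0.61 (Ubx and abd-A).

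Whether females and males differ in the Hox genes of a shared body region was compared next. In genitalia Antp was higher in females than in males, in dsxRNAi and in control animals. The 6 dsxRNAi female libraries had 5.14, 4.55, 6.52, 5.59, 4.59 and 4.12 CPM, against 3.20, 1.51, 1.74, 2.50, 2.69 and 1.72 CPM in the 6 dsxRNAi male libraries. The 6 control female libraries had 3.91, 6.92, 3.99, 4.62, 7.78 and 4.22 CPM, against 3.21, 3.18, 1.84, 3.19, 1.89 and 1.84 CPM in the 6 control male libraries. In both treatments every female library lay above every male library. The share of all genes whose libraries separate in this way is not given here. In the edgeR tests between the sexes, 25.9% of all genes in dsxRNAi genitalia and 37% in control genitalia had an unadjusted p under 0.05. The log2 fold change of females over males was 1.15 in dsxRNAi genitalia (SE 0.23, edgeR adjusted p = 0.0327), where 2.06% of all genes were called, and 1.02 in control genitalia (SE 0.26, edgeR adjusted p = 0.0402), where 10.3% were called. Both adjusted values lie close to the threshold. When each library was dropped in turn, the call was kept in 4 of 12 fits for dsxRNAi animals and 1 of 12 for controls, with log2 fold changes of 1.07 to 1.29 and 0.86 to 1.10 and adjusted p-values of 0.0172 to 0.0827 and 0.0157 to 0.0915. The call was also lost without the low-count filter (adjusted p = 0.0501 in dsxRNAi animals and 0.0613 in controls) and under library-total scaling (log2 fold changes 0.98 and 0.73, adjusted p = 0.129 and 0.106), whereas DESeq2 kept it in both.

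**Figure D3:**
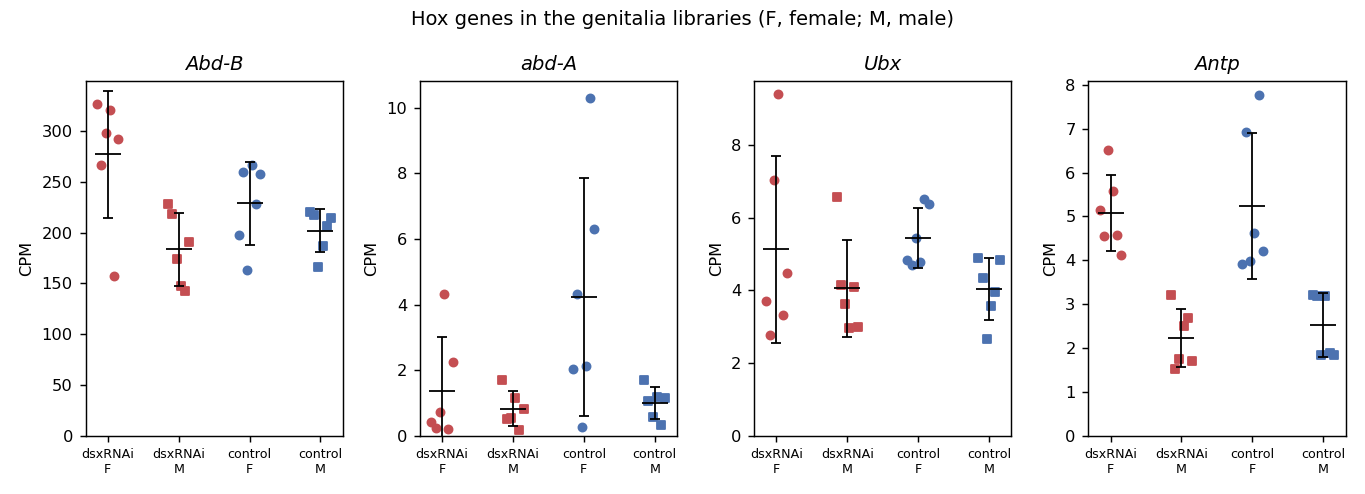
The 4 Hox genes in the 24 genitalia libraries, in CPM on linear axes from 0. Circles are females and squares males, red is dsxRNAi and blue control, horizontal lines are means and error bars 1 SD (n = 6), cut off at 0. Every female library lies above every male library of the same treatment for Antp, whereas the sexes overlap for the other 3 genes.

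The other Hox genes of the genitalia overlapped between the sexes. abd-A had 0.43, 0.23, 0.74, 4.31, 0.21 and 2.25 CPM in dsxRNAi females against 1.69, 0.505, 0.553, 1.16, 0.186 and 0.826 CPM in dsxRNAi males, and it did not pass the low-count filter in that comparison. In controls it had 2.05, 4.33, 0.27, 2.14, 10.3 and 6.30 CPM in females against 1.69, 1.06, 0.57, 1.19, 0.32 and 1.15 CPM in males. The 5 higher control females stood above all 6 control males and the remaining female library, S87, below all of them. S87 had 2 abd-A reads, under the floor, against 4 in the lowest control male library. The log2 fold change of 2.04 (SE 0.65) had an edgeR adjusted p of 0.058 and was not called, and it was called by DESeq2 (2.06, adjusted p = 0.011) and by edgeR without S87 (2.29, adjusted p = 0.042). Abd-B averaged 277 ± 62.3 CPM in dsxRNAi females and 183 ± 35.6 CPM in dsxRNAi males. Its log2 fold change of 0.56 (SE 0.19) was not called (edgeR adjusted p = 0.109). DESeq2 called this difference (0.57, adjusted p = 0.040), as did edgeR without the dsxRNAi female library S77 (0.69, adjusted p = 0.041) and with the 4 groups of genitalia in 1 fit (0.55, adjusted p = 0.045). In controls Abd-B averaged 229 ± 41.1 CPM in females and 202 ± 21.4 CPM in males (log2 fold change 0.14, SE 0.13, edgeR adjusted p = 0.417), a direction that turned under library-total scaling (-0.17). Ubx averaged 5.13 ± 2.58 CPM in dsxRNAi females and 4.06 ± 1.33 CPM in dsxRNAi males, and 5.45 ± 0.82 CPM in control females and 4.04 ± 0.85 CPM in control males. Its log2 fold changes of 0.31 (SE 0.33) and 0.40 (SE 0.20) did not pass the edgeR test (adjusted p = 0.555 and 0.152).

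The genitalia of the sexes also differed in markers of other tissues. In the comparisons of females with males, 2.06% of all genes were called in dsxRNAi genitalia and 10.3% in control genitalia, in either direction. The muscle marker sum over 8 genes was 2111 to 6452 CPM in dsxRNAi females against 1606 to 4439 CPM in dsxRNAi males, and 2131 to 7674 CPM in control females against 1570 to 2409 CPM in control males, and 1 and 5 of the 8 genes were called higher in females. The neuronal sum over 5 genes was 217 to 458 CPM in dsxRNAi females against 174 to 264 CPM in dsxRNAi males, and 180 to 490 CPM in control females against 162 to 222 CPM in control males, with 0 and 1 of 4 tested genes called higher. Of the 2 blood cell markers 1 was called higher in dsxRNAi females, of the 2 glial markers 1 was called lower in control females, and no marker of epidermis, fat body, trachea or germ line was called. Over all 24 genitalia libraries r between Antp and the marker sums, on log2(CPM + 1), was 0.53 for muscle and 0.59 for neurons. Within the 12 females it was -0.62 for muscle and -0.42 for neurons, and -0.39 and 0.20 without the 2 libraries farthest from the median of the sum. Within the 12 males it was 0.37 and 0.38, and 0.53 and 0.37 without the 2 such libraries. Among the other marker sums, r was largest in size for blood cells within females (-0.71) and for trachea within males (0.66). Over all 24 libraries these were -0.20 for blood cells and 0.35 for trachea. The part of tissue composition in the sex difference of Antp was not tested.

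In thoracic horns Antp did not separate the sexes. It averaged 14.6 ± 6.67 CPM in dsxRNAi females and 12.3 ± 3.20 CPM in dsxRNAi males, a log2 fold change of 0.24 (SE 0.33, edgeR adjusted p = 0.999) in a comparison that called 0% of genes. It averaged 14.3 ± 4.93 CPM in control females and 14.05 ± 4.28 CPM in control males, a log2 fold change of 0.02 (SE 0.25, edgeR adjusted p = 0.987), where 0.355% were called; under library-total scaling the value was -0.25. Over the 24 thoracic horn libraries r between Antp and the marker sums was -0.66 for blood cells and 0.63 for epidermis. It lay between -0.41 and 0.55 for the other markers. The library with the lowest Antp, S28 (5.56 CPM), had the highest blood cell sum (11052 CPM) and the lowest epidermal sum (4148 CPM). The part of tissue composition in the Antp values was not tested. No other Hox gene had enough reads in thoracic horns, and none in head horns or brain, to be tested between the sexes. Over all regions 1 of 4 tests of a Hox gene between dsxRNAi females and males passed, and 1 of 5 between control females and males, Antp in genitalia both times.

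Whether injection of double-stranded RNA against dsx changes the Hox genes within a sex was compared last. In female genitalia dsx itself lay between 2.81 and 45.9 CPM in dsxRNAi libraries. It lay between 8.24 and 129 CPM in control female genitalia, so these groups overlapped. In male genitalia dsx lay between 1.95 and 17.2 CPM in dsxRNAi and between 20.4 and 35.8 CPM in control libraries, without overlap. No Hox gene was called. In female genitalia, where 0.0101% of all genes were called, the log2 fold change of dsxRNAi over control was 0.27 for Abd-B (SE 0.18), -1.61 for abd-A (SE 0.86), -0.09 for Ubx (SE 0.30) and -0.05 for Antp (SE 0.23). The abd-A difference had an edgeR adjusted p of 1.00, and without single libraries its value lay between -2.45 and -1.11. In male genitalia, where 0% were called, the values were -0.14 for Abd-B (SE 0.13), -0.27 for abd-A (SE 0.48), 0.01 for Ubx (SE 0.23) and -0.18 for Antp (SE 0.26). In thoracic horns, where 0% of genes were called in either sex, Antp differed by 0.04 in females (SE 0.34) and -0.19 in males (SE 0.23). By the same tests dsx itself was not called in male genitalia or in thoracic horns of either sex. The absence of a call therefore does not show that a Hox gene was unchanged. Neither edgeR nor DESeq2 called any of the 10 differences of Hox genes, and 0 of the 10 had an unadjusted p under 0.05. Over all genes tested by edgeR, 2.56% in female and 6.23% in male genitalia had an unadjusted p under 0.05. In thoracic horns these shares were 2.23% in females and 6.59% in males, so a count of 0 among 10 is not particular to the Hox genes. The directions for Ubx in either sex and for Antp in females turned in some of the fits with another scaling or with 1 library left out.

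**Figure D4:**
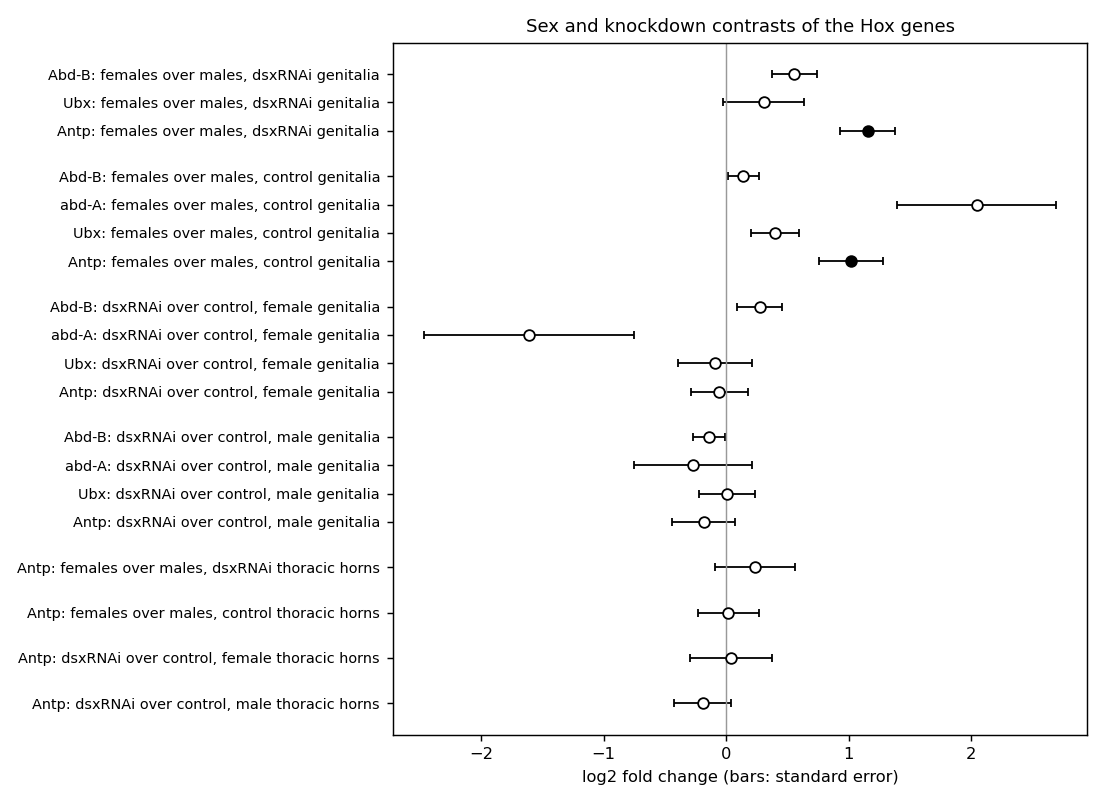
Log2 fold change of each Hox gene between the sexes and between dsxRNAi and control animals, in genitalia and thoracic horns. Points are edgeR estimates, bars 1 standard error, filled points are called at an adjusted p under 0.05. The only filled points are Antp between females and males in dsxRNAi genitalia (1.15) and in control genitalia (1.02).

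The sex difference itself was also compared between treatments. The interaction of sex and treatment was 0.40 for Abd-B (SE 0.23), -1.35 for abd-A (SE 1.03), -0.10 for Ubx (SE 0.38) and 0.13 for Antp (SE 0.34) in genitalia, on the log2 scale, where a positive value means a larger female excess in dsxRNAi animals and 0.0191% of all genes were called. It was 0.23 for Antp in thoracic horns (SE 0.42), where 0.0105% were called. Neither edgeR nor DESeq2 called any of the 5, and 0 of the 5 had an unadjusted p under 0.05. Over all genes tested by edgeR for the interaction, 4.12% in genitalia and 6.38% in thoracic horns had an unadjusted p under 0.05.

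Across single genitalia libraries abd-A moved with dsx in females, a relation chosen after its values were seen and given as a description. In dsxRNAi females dsx had 8.71, 12.5, 39.7, 45.9, 2.81 and 28.8 CPM in the libraries whose abd-A values are given above in the same order, and in control females 17.5, 54.98, 8.24, 36.97, 129 and 60.7 CPM. In both groups the library with the highest dsx had the highest abd-A and the library with the lowest dsx the lowest. On log2(CPM + 1), r over the 12 female libraries was 0.89 (Spearman's rho 0.93), and 0.85 without the 2 libraries farthest from the median of dsx. It was 0.75 within the 6 dsxRNAi females and 0.97 within the 6 control females. In males r was 0.39 within dsxRNAi and -0.10 within control libraries. The dsxRNAi female libraries had 2 to 54 reads of abd-A, with a median of 5. Over the 12 female libraries r with dsx was 0.66 for Ubx, 0.58 for Antp and 0.48 for Abd-B. abd-A moved in the opposite direction to the neuronal and muscle marker sums in females (r = -0.80 and -0.71, n = 12), and the part of tissue composition in the relation was not tested.

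**Figure D5:**
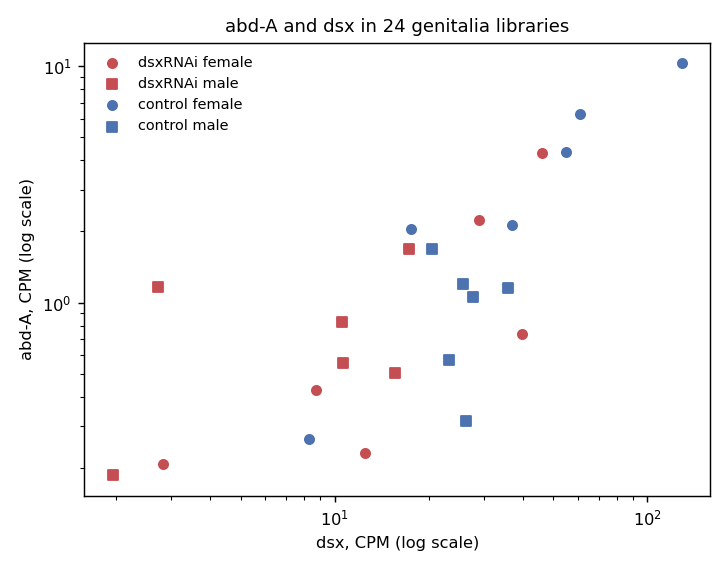
abd-A against dsx in the 24 genitalia libraries, in CPM on log axes. Red is dsxRNAi and blue control, circles are females and squares males. Female libraries run from 0.21 CPM of abd-A at 2.81 CPM of dsx to 10.3 CPM at 129 CPM, and male libraries have no more than 1.69 CPM of abd-A.

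The partners of Hox proteins were expressed in all 4 regions. Dmel-Tmp-exd (Extradenticle, which carries Hox proteins onto DNA in flies) averaged 281 CPM in genitalia, 357 CPM in thoracic horns, 370 CPM in head horns and 242 CPM in brain. It was lower in genitalia than in thoracic horns, with a log2 fold change of -0.31 in dsxRNAi animals (SE 0.11, edgeR adjusted p = 0.028) and -0.33 in controls (SE 0.07, edgeR adjusted p = 4.1e-04), and it did not pass the test between thoracic and head horns (-0.07, SE 0.11, and -0.02, SE 0.07). Dmel-Tmp-hth (Homothorax, the partner of Extradenticle) averaged 20.1, 13.5, 61.9 and 12.0 CPM in the same order of regions. It was lower in thoracic horns than in head horns in dsxRNAi animals (-2.18, SE 0.27, edgeR adjusted p = 7.0e-06) and in controls (-2.09, SE 0.17, edgeR adjusted p = 8.5e-09), and likewise lower in genitalia than in head horns (-1.81, SE 0.31, and -1.38, SE 0.23). Between genitalia and thoracic horns it was not called in dsxRNAi animals (0.31, SE 0.36, edgeR adjusted p = 0.51) and was higher in genitalia in controls (0.72, SE 0.22, edgeR adjusted p = 0.0094). Dmel-Tmp-tio (tiptop, a zinc finger gene related to the trunk gene teashirt of flies) was not called between thoracic and head horns in dsxRNAi animals (0.53, SE 0.20, edgeR adjusted p = 0.145) and was higher in thoracic horns in controls (0.63, SE 0.15, edgeR adjusted p = 0.0071). The head horn levels of Dmel-Tmp-hth and Dmel-Tmp-tio also differed between the sexes of control animals. Dmel-Tmp-hth averaged 65.9 ± 24.4 CPM in dsxRNAi females and 64.7 ± 27.03 CPM in dsxRNAi males, and 82.4 ± 19.6 CPM in control females and 34.5 ± 7.49 CPM in control males (SD, n = 6 each). Its log2 fold change of females over males was 0.05 in dsxRNAi head horns (SE 0.29, edgeR adjusted p = 0.992), where 0% of all genes were called, and 1.25 in control head horns (SE 0.18, edgeR adjusted p = 0.0025), where 6.53% were called. For Dmel-Tmp-tio it was -0.08 in dsxRNAi head horns (SE 0.27, edgeR adjusted p = 0.986) and 0.77 in control head horns (SE 0.18, edgeR adjusted p = 0.028). The interaction of sex and treatment was not called for either gene (edgeR adjusted p = 0.084 and 0.215), so a difference between the treatments is not shown. The list of cofactors held 4 names, of which 3 matched a gene. Between genitalia and thoracic horns 0 were called higher and 1 lower in dsxRNAi animals, with a median log2 fold change of -0.03 over the 3 against -0.02 over all genes tested, and 1 higher and 1 lower in controls, with a median of -0.33 against 0.03.

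Of 23 Polycomb group names 12 matched, and of 19 trithorax group names 15. Between dsxRNAi genitalia and dsxRNAi thoracic horns 1 Polycomb gene was called higher and 3 lower, and 2 trithorax genes higher and 5 lower, 33.3% and 46.7% of those tested beside 38.9% of all genes. Between control genitalia and control thoracic horns 2 Polycomb genes were called higher and 4 lower, 50% of the 12 tested, with a median log2 fold change of -0.13, and 2 trithorax genes were called higher and 8 lower, 66.7% of the 15 tested, with a median of -0.37. Both stand beside 50.1% and a median of 0.03 over all genes. In controls Dmel-Tmp-sxc (super sex combs, an O-GlcNAc transferase) had a log2 fold change of -0.44 (SE 0.09), Dmel-Tmp-crm -0.36 (SE 0.13) and Dmel-Tmp-lolal 0.27 (SE 0.08), the largest called changes of the first list. In the second, Dmel-Tmp-psq had 1.05 (SE 0.18), Dmel-Tmp-ash1, a histone methyltransferase, -0.80 (SE 0.12) and Dmel-Tmp-kis, a chromatin remodeller, -0.70 (SE 0.20). Of these 6 genes Dmel-Tmp-sxc, Dmel-Tmp-psq and Dmel-Tmp-ash1 were also called in dsxRNAi animals (-0.39, 0.88 and -0.90). Between thoracic horns and head horns edgeR called 0 of 12 Polycomb and 0 of 15 trithorax genes in dsxRNAi animals, where 4.81% of all genes were called, and 0 of 12 and 3 of 15 in controls, where 10.2% were called. In controls Dmel-Tmp-utx was higher in thoracic horns (0.63, SE 0.09), and Dmel-Tmp-mnn1 (-0.29, SE 0.08) and Dmel-Tmp-trx (-0.28, SE 0.08), the trithorax gene itself, were lower, and their values in dsxRNAi animals were 0.06 (SE 0.23), -0.19 (SE 0.12) and -0.31 (SE 0.13).

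Of 16 names of other axial patterning genes 4 matched a gene and 2 passed the filter in genitalia. Dmel-Tmp-en (engrailed, the posterior compartment gene of each segment in flies) averaged 3.85 ± 1.54 CPM in dsxRNAi females and 25.3 ± 8.25 CPM in dsxRNAi males, and 4.91 ± 2.50 CPM in control females and 20.8 ± 5.39 CPM in control males (SD, n = 6 each). It was lower in female than in male genitalia, with log2 fold changes of -2.74 (SE 0.32, edgeR adjusted p = 0.0041) in dsxRNAi animals and -2.10 (SE 0.33, edgeR adjusted p = 0.0062) in controls, the opposite direction to Antp. It was higher in genitalia than in thoracic horns in dsxRNAi animals (2.73, SE 0.70, edgeR adjusted p = 0.0039) and in controls (1.91, SE 0.50, edgeR adjusted p = 0.0029), and than in head horns (3.35, SE 0.46, and 3.58, SE 0.44). Dmel-Tmp-ftz-f1, a nuclear receptor that in flies works with the pair-rule protein Fushi tarazu, had a log2 fold change between genitalia and head horns of -0.01 in dsxRNAi animals (SE 0.13, edgeR adjusted p = 0.964, not called) and -0.26 in controls (SE 0.11, edgeR adjusted p = 0.037).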

How the data were processed

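RNA of 96 libraries was sequenced as single-end reads from a stranded mRNA kit. Per the submitters' notes the authors trimmed reads with Trimmomatic 0.32, aligned them with TopHat2 2.1.0 and counted them with HTSeq 0.6.1p1; the strand setting of the counting is not given in the sources used here. The deposited counts are whole reads per gene. The deposited FPKM values were made by the authors with DESeq2, and here they served only to compare levels between genes. Coordinates are those of the deposited annotation.

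Counts were tested with edgeR 4.0.16 in R 4.3.3 (TMM scaling, filterByExpr by group, robust quasi-likelihood test, Benjamini-Hochberg adjustment over all genes tested, called at an adjusted p under 0.05), with 12 libraries a side between regions of 1 treatment and 6 a side otherwise. Tables and figures were made with Python 3.11.15. Alternatives were DESeq2 1.42.0, library-total scaling, no filter, wider fits and leaving out single libraries. On simulated counts with 9958 genes tested for 1 comparison, 196 of 196 changed genes were recovered with 6 false calls. The smallest log2 fold change that would be recovered was not tested. No 2 libraries held identical counts.

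Genes named were the Hox genes, their scaffold neighbours, the 3 genes most like each by Pearson's r, exd, hth and, of each list, the 3 called genes with the largest change. The members and lists were chosen with earlier results of these data known. Hox names without a row were not analysed here, a further result is not reported here, and no sequence was printed.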

Additional observations from a re-analysis of the deposited data

Results flagged for a closer look

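In 31 groups of 6 libraries with reads of a Hox gene, 7 had 1 library far from the other 5, as judged by Dixon's 95% critical value; chance gives about 1 in 20 groups for normally distributed values, and its rate for low read numbers was not measured. In genitalia, the dsxRNAi female library S77 had 157 CPM of Abd-B, against 267 to 326 CPM in the other 5, and the dsxRNAi male library S79 had 6.58 CPM of Ubx, against 2.96 to 4.14 CPM in the other 5. S77 also had the highest glial marker sum of the genitalia libraries (691 CPM); its part in the low Abd-B value was not tested.

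In thoracic horns Ubx stood apart in the dsxRNAi female library S25 (2.32 CPM, the other 5 at no more than 0.25 CPM) and in the control male library S46 (1.18 CPM, the other 5 at 0). The remaining 3 rest on few reads. The dsxRNAi female head horn library S52 had 1.38 CPM of Antp from 18 reads, against 0.20 to 0.56 CPM in the other 5. The dsxRNAi female head horn library S51 had 0.72 CPM of Abd-B from 9 reads, with the other 5 at no more than 0.23 CPM, and the dsxRNAi female brain library S3 had 0.44 CPM of Abd-B from 6 reads, with the other 5 at no more than 0.086 CPM.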

How the results depend on the processing

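The tests of Hox genes between regions kept their direction and their call in every alternative in which the gene was tested. In controls abd-A was tested in 5 of the 7 alternatives. For Ubx, abd-A and Abd-B these tests add nothing beyond the read counts, as stated above. The number of calls moved with how many genes reached a test: in dsxRNAi animals 11 were called, against 17 by DESeq2, 19 with all 96 libraries in 1 fit and 17 without the filter, and in controls 14, against 11 to 18. Between dsxRNAi females and males 1 was called, against 2 by DESeq2, 2 with the 4 groups of a region in 1 fit, 0 under library-total scaling, 0 without the filter and 0 to 2 with 1 library left out. Between control females and males 1 was called, against 2 by DESeq2, 0 under library-total scaling, 0 without the filter and 0 to 1 with 1 library left out; the cause was not tested. Between dsxRNAi and control animals, and for the interaction, 0 were called in every fit.

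Directions that turned all belonged to differences that were not called. Library-total scaling turned Ubx between dsxRNAi and control genitalia (0.0093 in females, -0.078 in males), Abd-B and Antp between control females and males (-0.17 in genitalia, -0.25 in thoracic horns) and the Ubx interaction (0.086); this scaling moved the median of all genes in genitalia by -0.21 between dsxRNAi females and males and -0.33 between control females and males. With 1 library left out, dsxRNAi over control gave -0.37 to 0.032 (females) and -0.18 to 0.088 (males) for Ubx in genitalia, -0.13 to 0.11 for Antp in female genitalia and -0.12 to 0.20 in female thoracic horns, and Antp between control females and males gave -0.11 to 0.19 in thoracic horns. Leaving out S25 or S46 for the pooled Ubx ratio was chosen after seeing the data. No paired analysis was possible because the labels do not give which libraries share a pupa, and every library number is used once. Outside genitalia, read numbers mostly near or under 3 a library limit what can be said of Ubx, abd-A and Abd-B.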
